A study of Mus musculus with 38 samples.

Results

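The complement system is followed here through 8 genes in mouse bone marrow-derived macrophages of the C57BL/6 strain. The genes were taken by symbol: C1qa, C1qb, C1qc, C3, C3ar1, C5ar1, Cfb and Cfp, 8 of the 11184 genes in the deposited expression table, and all 8 were among the 9942 that passed the minimum of 1 RPKM (the read count per gene length and per library size) in at least 4 libraries. Cfb passed through its stimulated libraries alone. The study sequenced messenger RNA in 32 libraries, 4 per group. Stimulated cells received 5 ng/ml of lipopolysaccharide (LPS) together with 12 ng/ml of interferon-gamma (IFNg), a mixture that drives macrophages toward the inflammatory M1 state, and were taken at 4, 8, 16 and 24 h. A further 3 groups received the same mixture and, 4 h later, lactic acid, and were taken at 8, 16 and 24 h after LPS and IFNg; the labels give no dose of the acid. Unstimulated cells (0 h, called M0) were the baseline. Chromatin immunoprecipitation with sequencing mapped lactylation (H3K18la) and acetylation (H3K18ac) of lysine 18 of histone H3 in M1 cells at 24 h and in M0 cells, with 1 library per mark and state. The labels do not say whether the libraries of a group came from separate animals or cultures, so each p-value reflects library-to-library spread alone, which may be technical.

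Complement is a chain of plasma and tissue proteins that tag particles for uptake, recruit leukocytes and lyse membranes. The classical pathway starts when C1q, built from the chains encoded by C1qa, C1qb and C1qc, binds its target. The alternative pathway amplifies any start by pairing C3 fragments with factor B (Cfb), and properdin (Cfp) holds that complex together. All routes meet at C3, and small fragments cut from C3 and C5 signal through the receptors encoded by C3ar1 and C5ar1. The liver makes most circulating C3 and factor B, whereas macrophages are a major source of C1q and express both receptors.

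The 8 genes moved in different directions after stimulation. C3 was 9.34-fold higher at 4 h than at 0 h and 11-fold higher at 24 h, and Cfb, with 2 to 9 reads per library at 0 h, had at least 763 in every library stimulated without lactic acid. Properdin was 2.1-fold higher at 24 h. The 3 C1q chains, which had the highest RPKM of the 8 genes at 0 h, were all lower at 16 and 24 h. The 2 receptors took different courses, C3ar1 with a dip at 8 h and C5ar1 with its highest mean there. Lactic acid was followed by higher C3 at all 3 times and by lower C1q chains and lower Cfp at 8 and 16 h, while Cfb was lower at 8 and 16 h and higher at 24 h. Some of these calls depended on the processing. With a trend on gene length taken out, C1qa and C1qc lost their 8 h calls and C1qc its 16 h call. Under another library scaling the 24 h rises of C3 and Cfb missed the threshold (adjusted p = 0.133 and 0.0554, limma). H3K18la peaks within 5 kb of C3 and Cfb were called in M1 cells and not in M0 cells, a pattern of 0.957% of genes, with 1 library per state. Neither gene kept this pattern within 20 kb, and Cfb lost it at a -log10 q of at least 5.

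The libraries held 60.6 to 103.9 M reads (megareads) in listed genes, recovered from the RPKM. All 10 macrophage markers were listed. Their sum, carried mostly by Lyz2, was 13700 to 14800 RPKM at 4 h, 36300.0 to 48500.0 RPKM at 24 h, 10700 to 11400 RPKM with lactic acid at 8 h and 18000.0 to 20500.0 RPKM at 0 h; at 24 h 7 of the markers rose and 2, Csf1r (-1.32) and Mertk (-0.58), fell on the log2 scale. None of 5 hepatocyte markers and none of 8 lymphocyte markers were listed. The deposited table lists genes that differ among the groups by the authors' own test, so a marker missing from it may still be expressed. Of 12 markers of neutrophils and granulocyte precursors 5 were listed, with sums of 55.4 to 84.2 RPKM at 4 h, 21.8 to 34.4 RPKM at 24 h and 10.4 to 16.1 RPKM at 0 h, and their part in the changes below was not tested. Of 8 dendritic cell markers 3 were listed, with sums of at most 4.93 RPKM, and of 8 stromal and endothelial markers 6 were listed, with sums of at most 3.83 RPKM. In RNA from whole cultures, fewer cells of a type and less RNA per cell cannot be told apart. The deposited RPKM divide by an effective library size, which averaged 1.333 times the reads in listed genes at 0 h and 0.824 to 1.045 times in the other groups. Rebuilt on the reads in listed genes (called rebuilt RPKM below), the median log2 change of all tested genes against 0 h ranged between -0.43 (4 h) and -0.30 (16 h), whereas as deposited it ranged between -0.012 (8 h) and 0.017 (16 h). Small changes against 0 h therefore depend on this choice, and each is given on both scales where its direction differs. Over 88 pairs of a member and a comparison, rebuilt RPKM turned the sign in 9 that passed the threshold on either scale. The count tests edgeR and DESeq2 on the recovered reads, which scale the libraries in their own way, turned 0.

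The promoters over which the histone marks were mapped are printed for the 5 members whose chromatin or RNA results differ most in kind, from 250 bases before to 50 bases after the gene start, 5′ to 3′. They come from RefSeq with the GRCm38.p6 build, which is the build of the peak files. Capitals mark matches to 6 motifs searched on both strands: AP-1 (TGANTCA), C/EBP (TTGCNNAA), kappaB (GGG, 2 free bases, TTTCC), GAS (TTCNNNGAA), ISRE (GAAA, 2 free bases, GAAA) and PU.1/ETS (AGGAAGT).
C3, chr17:57228087-57228386, minus strand: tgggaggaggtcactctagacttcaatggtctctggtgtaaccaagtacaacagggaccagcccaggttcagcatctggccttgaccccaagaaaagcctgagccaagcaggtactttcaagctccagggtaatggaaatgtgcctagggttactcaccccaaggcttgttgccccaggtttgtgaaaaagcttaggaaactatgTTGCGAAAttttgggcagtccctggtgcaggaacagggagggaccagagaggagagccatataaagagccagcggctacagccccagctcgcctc
C5ar1, chr7:16259289-16259588, minus strand: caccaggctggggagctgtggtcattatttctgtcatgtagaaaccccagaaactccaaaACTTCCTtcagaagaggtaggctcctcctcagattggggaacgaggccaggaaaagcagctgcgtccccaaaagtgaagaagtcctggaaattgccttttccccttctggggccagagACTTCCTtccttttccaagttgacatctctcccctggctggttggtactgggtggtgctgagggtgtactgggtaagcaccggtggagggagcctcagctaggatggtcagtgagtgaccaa
C3ar1, chr6:122856108-122856407, minus strand: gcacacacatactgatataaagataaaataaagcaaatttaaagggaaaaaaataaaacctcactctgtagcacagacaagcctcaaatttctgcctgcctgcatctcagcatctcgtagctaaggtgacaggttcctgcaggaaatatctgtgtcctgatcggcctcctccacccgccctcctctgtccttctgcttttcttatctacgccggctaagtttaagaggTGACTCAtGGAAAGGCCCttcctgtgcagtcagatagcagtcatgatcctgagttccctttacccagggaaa
C1qb, chr4:136886151-136886450, minus strand: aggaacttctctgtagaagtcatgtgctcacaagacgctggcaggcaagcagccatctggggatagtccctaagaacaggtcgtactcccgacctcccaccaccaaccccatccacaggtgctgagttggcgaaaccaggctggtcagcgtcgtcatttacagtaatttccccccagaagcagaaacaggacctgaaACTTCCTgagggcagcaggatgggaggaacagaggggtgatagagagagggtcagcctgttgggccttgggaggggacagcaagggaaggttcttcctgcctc
Cfp, chrX:20931506-20931805, minus strand: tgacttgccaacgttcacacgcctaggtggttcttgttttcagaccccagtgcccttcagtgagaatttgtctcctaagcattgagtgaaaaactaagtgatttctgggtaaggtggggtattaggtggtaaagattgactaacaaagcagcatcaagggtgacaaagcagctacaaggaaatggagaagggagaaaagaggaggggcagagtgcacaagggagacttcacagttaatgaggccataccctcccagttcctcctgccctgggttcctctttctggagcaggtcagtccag
The C3 promoter held 1 C/EBP match at bases -45 to -38 from the start, a motif found in 10.8% of 32851 promoters of the same length. The C3ar1 promoter held an AP-1 match at -22 to -16, found in 7.81% of promoters, and a kappaB match at -14 to -5, found in 1.63%. PU.1/ETS matches, found in 9.35% of promoters, lay in C1qb at -53 to -47, in C1qc at -195 to -189 and at 2 places in C5ar1, -190 to -184 and -72 to -66. Cfp held no match, and neither GAS (8.3% of promoters) nor ISRE (3.44%) was found in the 6 members with an entry. C1qa and Cfb have no entry in the table. The motifs do not overlap each other in these windows, and a match is a description of letters, not a site shown to be bound.

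The time course was compared with 0 h by limma on log2(RPKM + 1), with Benjamini-Hochberg adjustment over all 9942 tested genes and a threshold of 0.05; fold changes below are on that log2 scale unless stated. At 4 h 3 members rose (42.5% of all tested genes did) and 2 fell (42.7%). At 8 h 4 rose (40.7% of genes) and 2 fell (42.1%). At 16 h 5 rose (39.9% of genes) and 3 fell (36.9%), and the same numbers of members moved at 24 h (39.9% of genes higher, 37.3% lower). In either direction 85.3% of genes were called at 4 h, 82.7% by 8 h, 76.8% by 16 h and 77.2% by 24 h, so a large number of members called says nothing particular about complement. The deposited table lists genes that differ among the groups by the authors' own test, so some change was to be found in each listed gene. A rise of Cfb, counted at each time, was also to be found, as it passed the minimum through its stimulated libraries alone. The members' median log2 change was 0.04 (4 h), 0.15 (8 h), 0.44 (16 h) and 0.37 (24 h). On rebuilt RPKM 2 members were higher and 6 lower at 4 h, 3 and 5 at 8 h, 4 and 3 at 16 h, and 3 and 4 at 24 h. The rebuilt scale called 2335 of the 9942 tested genes higher and 6337 lower at 4 h, and 2200 and 6365 at 8 h. At 16 h it called 2085 higher and 6046 lower, and at 24 h 1686 and 6588. The 4 comparisons share the 0 h libraries.

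**Figure D1:**
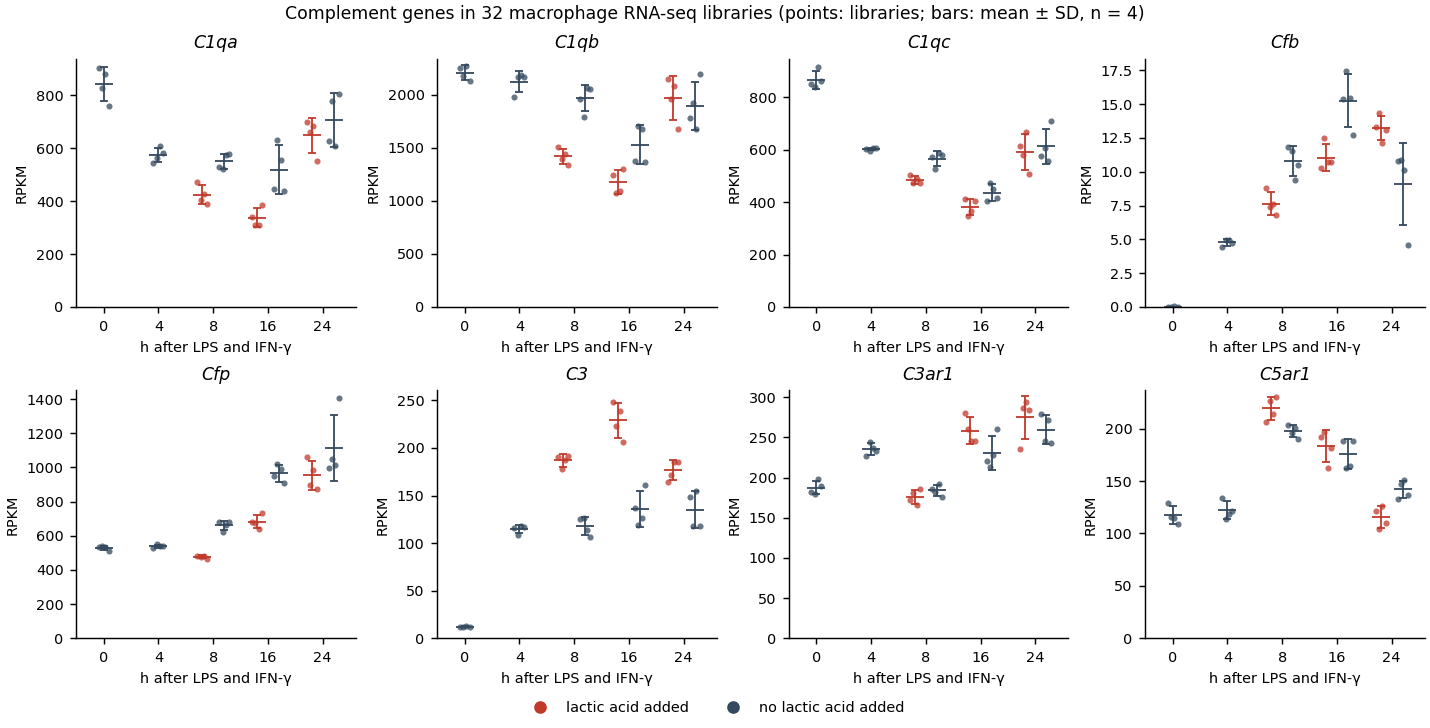
RPKM of the 8 complement genes in every library against hours after LPS and IFNg, with lactic acid libraries (red) left of the libraries of the same time without it (dark). Points are libraries and bars the mean ± SD of 4; C3 and Cfb lie near 0 at 0 h and the C1q chains are highest there.

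C3, the protein on which all activation routes converge, had 116, 109, 118 and 117 RPKM at 4 h, against 11.8, 12.2, 12.8 and 12.4 RPKM at 0 h. The 2 groups lay far apart, and every later group did as well. The log2 change was 3.12 ± 0.08 (SE, n = 4 each, adjusted p = 1.98e-25). C3 then held a plateau: it averaged 115 ± 3.9 RPKM (SD) at 4 h and 118 ± 9.2 RPKM at 8 h, then 136 ± 18.5 RPKM by 16 h and 135 ± 19.4 RPKM by 24 h. The step from 8 to 16 h was 0.20 ± 0.08 (adjusted p = 0.036) with overlapping libraries, and the call was lost without 8 h replicate 3 (0.18) or 4 (0.15) or without 16 h replicate 1 (0.19) or 4 (0.11). The changes against 0 h were smaller on rebuilt RPKM, at 2.62 for 4 h and 2.89 for 24 h.

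Cfb encodes factor B, the protease-bearing partner of C3 in the alternative pathway. Its libraries held 4.45, 4.93, 4.97 and 4.73 RPKM at 4 h, against 0.0124, 0.0172, 0.0343 and 0.00853 RPKM at 0 h. The 0 h values rest on 3, 4, 9 and 2 reads, so the fold was taken from summed reads: 258-fold at 4 h (95% interval 163 to 435, counting error only) from 4713 reads at 4 h and 18 at 0 h, with library size taken into account. Cfb went on rising, with 11.8, 11.5, 9.39 and 10.5 RPKM at 8 h and 15.4, 17.5, 15.4 and 12.7 RPKM at 16 h. The 16 h libraries were 821-fold over 0 h in summed reads (519 to 1390). On the log2(RPKM + 1) scale, which understates low genes, the changes against 0 h were 2.50 (4 h), 3.53 (8 h), 3.99 (16 h) and 3.25 (24 h), each with an SE of 0.14 (adjusted p = 6.41e-22 at 16 h). Cfb passed the minimum through its stimulated libraries alone, so a rise over 0 h was to be found and the adjusted p adds no support. The authors' deposited table gives a log2 fold change of 7.97 at 4 h and 9.64 at 16 h. At 24 h Cfb had 10.8, 10.9, 10.2 and 4.59 RPKM, so 1 library (replicate 4) lay far below the other 3. The decline from 16 to 24 h was -0.74 ± 0.14 (adjusted p = 6.88e-05), and -0.48 without that library.

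Cfp encodes properdin, which stabilizes the alternative pathway's C3-cleaving complex and is made largely by myeloid cells. It averaged 531 ± 11.6 RPKM before stimulation, 538 ± 9.6 RPKM at 4 h, 661 ± 27 RPKM by 8 h, 966 ± 49 RPKM by 16 h and 1116 ± 193 RPKM by 24 h (SD, n = 4). At 24 h the libraries held 994, 1050, 1015 and 1403 RPKM, against 535, 539, 535 and 513 RPKM at 0 h. All 4 stimulated libraries lay above all 4 unstimulated ones, and the library with the highest Cfp was the library with the lowest Cfb (replicate 4). The log2 change at 24 h was 1.06 ± 0.08 (adjusted p = 1.37e-13), and 0.57 on rebuilt RPKM. At 8 h it was 0.32 ± 0.08 as deposited (adjusted p = 0.000421) but -0.17 on rebuilt RPKM, so an early direction depends on the scaling. At 4 h the difference was 0.02 ± 0.08 (adjusted p = 0.801) and -0.51 on rebuilt RPKM.

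The 3 C1q chains lie side by side within 18719 bases of chromosome 4 and build the recognition unit of the classical pathway. C1qc had 404, 474, 450 and 417 RPKM at 16 h, against 852, 840, 918 and 862 RPKM at 0 h. The 2 groups did not overlap, and C1qc fell by 0.99 on the log2 scale (SE 0.08, adjusted p = 4.04e-13). C1qb, the most abundant member, had 1378, 1700, 1679 and 1362 RPKM at 16 h, against 2254, 2176, 2272 and 2131 RPKM at 0 h, a log2 change of -0.54 ± 0.09 (adjusted p = 3.14e-06). C1qa had 446, 633, 554 and 439 RPKM at 16 h, against 903, 829, 880 and 759 RPKM at 0 h, a log2 change of -0.72 ± 0.11 (adjusted p = 3.46e-07). C1qa and C1qc were already lower at 4 h, by -0.55 ± 0.11 and -0.52 ± 0.08, whereas C1qb differed by -0.06 ± 0.09 at 4 h (adjusted p = 0.554) and by -0.17 ± 0.09 at 8 h (adjusted p = 0.0803). Whether C1qb fell that early depends on the processing: it was called lower on rebuilt RPKM (-0.59 at 4 h, -0.65 at 8 h) and with a trend of log2 RPKM on gene length taken out of each library (-0.30 at 4 h, -0.48 at 8 h). At 8 h it was also called by edgeR on recovered reads (-0.20, adjusted p = 0.0271) and in a fit of the groups compared alone (adjusted p = 0.0153, limma), and its 8 and 0 h libraries did not overlap. The RPKM ratio of C1qb to C1qa in the same library, which no library scaling moves, was 3.70 ± 0.114 at 4 h and 3.57 ± 0.111 at 8 h, against 2.63 ± 0.131 at 0 h (SD, n = 4 each). The ratio was 2.98 ± 0.196 at 16 h and 2.70 ± 0.162 at 24 h.

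From 16 to 24 h the C1q chains turned upward. C1qc had 577, 606, 559 and 711 RPKM at 24 h, above every 16 h library, and rose by 0.49 ± 0.08 (adjusted p = 5.24e-06). C1qa rose by 0.45 ± 0.11 and C1qb by 0.31 ± 0.09, with overlapping libraries (adjusted p = 0.000728 for C1qa and 0.00542 for C1qb). The call of C1qb was lost in a limma fit of the groups compared alone (adjusted p = 0.117). At 24 h C1qc was still lower than at 0 h, by -0.51 ± 0.08 (adjusted p = 5.93e-07). The differences of C1qa (-0.26 ± 0.11, adjusted p = 0.0229) and C1qb (-0.23 ± 0.09, adjusted p = 0.022) were small, and their libraries overlapped those of 0 h. Each call was lost without 24 h replicate 1 (C1qa -0.21, C1qb -0.20) or 3 (C1qa -0.20, C1qb -0.17) and in the fit of the groups compared alone (adjusted p = 0.0664 for C1qa and 0.0958 for C1qb, limma), and that of C1qa also without 0 h replicate 1 (-0.23) or 3 (-0.24).

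C3ar1 encodes the receptor for the C3a fragment. It averaged 187 ± 8.4 RPKM before stimulation, 235 ± 7.1 RPKM at 4 h, 184 ± 6.6 RPKM by 8 h, 231 ± 21 RPKM by 16 h and 259 ± 18 RPKM by 24 h (SD, n = 4). The 4 h libraries held 227, 244, 237 and 233 RPKM, against 182, 180, 198 and 190 RPKM at 0 h, with no overlap. The log2 changes against 0 h were 0.33 ± 0.07 at 4 h (adjusted p = 6.34e-05), 0.29 ± 0.07 at 16 h (adjusted p = 0.000302) and 0.46 ± 0.07 at 24 h (adjusted p = 4.26e-07), but on rebuilt RPKM they were -0.20 at 4 h, -0.09 at 16 h and -0.02 at 24 h. The dip between 4 and 8 h did not depend on the scaling, at -0.35 ± 0.07 as deposited (adjusted p = 3.18e-05) and -0.31 on rebuilt RPKM. The rise from 8 to 16 h was 0.32 ± 0.07 (adjusted p = 0.00013) and 0.41 on rebuilt RPKM.

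C5ar1 encodes the receptor for the C5a fragment, a strong attractant of myeloid cells. Its mean was highest at 8 h: 117 ± 8.6 RPKM before stimulation, 122 ± 8.7 RPKM at 4 h, 197 ± 5.7 RPKM by 8 h, 176 ± 14 RPKM by 16 h and 142 ± 8.4 RPKM by 24 h (SD, n = 4). The 8 h libraries held 203, 195, 201 and 190 RPKM, against 129, 116, 115 and 109 RPKM at 0 h, with no overlap. The log2 change was 0.75 ± 0.07 (adjusted p = 4.22e-11) and 0.27 on rebuilt RPKM. The step from 4 to 8 h was 0.69 ± 0.07 (adjusted p = 4.2e-10) and 0.74 on rebuilt RPKM. From 16 to 24 h C5ar1 fell by 0.30 on the log2 scale (SE 0.07, adjusted p = 0.000821). At 24 h it was 0.27 ± 0.07 above 0 h as deposited (adjusted p = 0.00098) and -0.21 on rebuilt RPKM.

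Counted over the steps, 3 members rose and 1 fell from 4 to 8 h (71.7% of all tested genes were called, 34.8% higher and 36.9% lower). From 8 to 16 h 4 rose and 3 fell (70.3% of genes called, 36.1% higher and 34.2% lower). From 16 to 24 h 5 rose and 2 fell (47.4% of genes called, 24.1% higher and 23.3% lower). Cfb and Cfp rose at the first 2 of these steps, by 1.03 and 0.29 from 4 to 8 h and by 0.46 and 0.55 from 8 to 16 h. On rebuilt RPKM 3 members rose and 1 fell from 4 to 8 h (3731 and 3351 of all tested genes did). From 8 to 16 h 4 rose and 2 fell on that scale (4210 and 2795 genes), and from 16 to 24 h 3 and 2 (1596 and 3226). Several small steps lie close to the threshold, and their calls depend on the library scaling and on which libraries are fitted. Rebuilt RPKM ended the calls of C5ar1 from 8 to 16 h (-0.08) and of C3ar1 (0.08) and Cfp (0.10) from 16 to 24 h. The change of C5ar1 from 8 to 16 h (-0.17, adjusted p = 0.0354) lost its call without 8 h replicate 1 (-0.16), 2 (-0.17) or 3 (-0.16) or 16 h replicate 2 (-0.13) or 3 (-0.14). The changes from 16 to 24 h of C3ar1 (0.17, adjusted p = 0.0402) and Cfp (0.19, adjusted p = 0.038) were also lost: that of C3ar1 without 16 h replicate 1 (0.15), 2 (0.13) or 3 (0.17) or 24 h replicate 1 (0.14) or 3 (0.15), and that of Cfp without 16 h replicate 1 (0.19) or 4 (0.16) or 24 h replicate 4 (0.08).

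**Figure D2:**
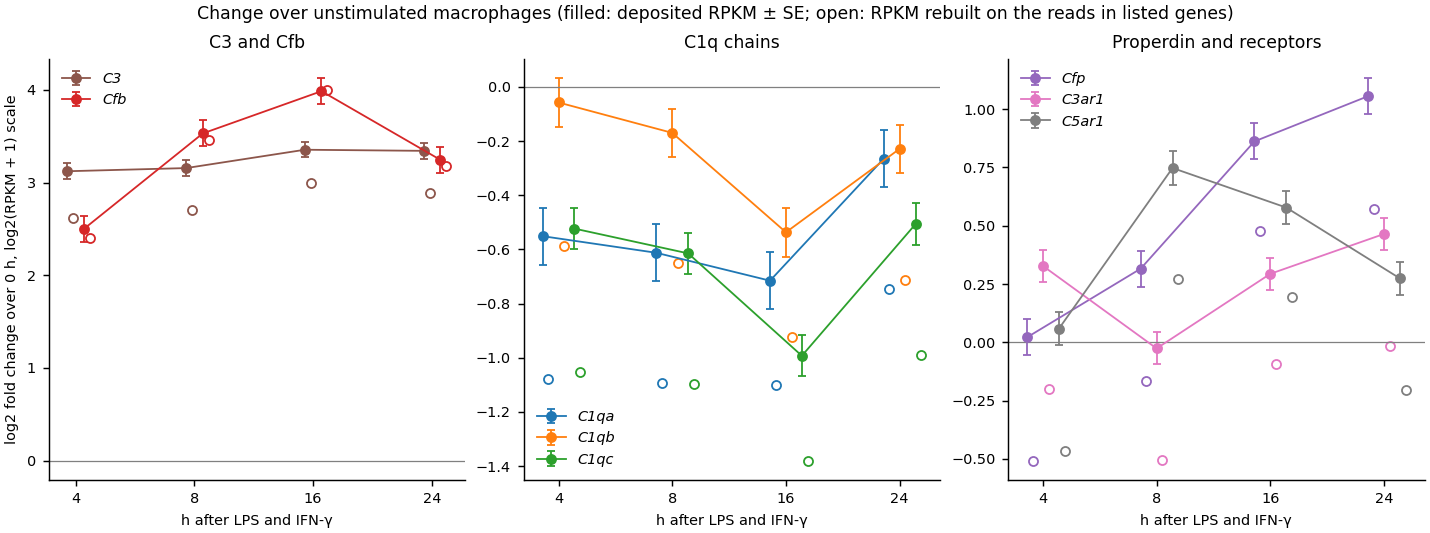
Log2 fold change over 0 h on the log2(RPKM + 1) scale for each gene at 4, 8, 16 and 24 h, with filled points for deposited RPKM (± SE) and open points for RPKM rebuilt on the reads in listed genes. C3 and Cfb stay above 2 on both scales and the C1q chains stay below 0, while C3ar1, C5ar1 and Cfp lie on different sides of 0 at some times.

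Lactic acid was compared with its absence at the same time after LPS and IFNg. At 8 h 1 member was higher with lactic acid and 5 were lower (68.2% of all tested genes were called, 32.1% higher and 36.0% lower). At 16 h 2 were higher and 5 lower (61.2% of genes called, 30.2% higher and 31.0% lower). At 24 h 2 were higher and 2 lower (47.1% of genes called, 25.5% higher and 21.7% lower). The members' median log2 change was -0.30 at 8 h, -0.28 at 16 h and 0.00 at 24 h, against -0.02, -0.01 and 0.01 for all tested genes. On rebuilt RPKM 2 members were higher and 5 lower at 8 h, 2 and 5 at 16 h, and 0 and 5 at 24 h. The rebuilt scale called 3709 of the 9942 tested genes higher and 2895 lower at 8 h, and 3154 and 2816 at 16 h. At 24 h it called 1035 higher and 4617 lower.

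C3 was higher with lactic acid at each time. At 8 h it had 191, 178, 187 and 192 RPKM with lactic acid, against 125, 126, 114 and 107 RPKM without it. At 16 h it had 249, 223, 239 and 206 RPKM with lactic acid, the highest group of all 8, against 137, 119, 126 and 161 RPKM without it. At 24 h it had 164, 172, 186 and 185 RPKM with lactic acid, against 149, 118, 154 and 118 RPKM without it. No library with lactic acid overlapped its comparison group at any of the 3 times. The log2 changes were 0.66 ± 0.08 at 8 h (adjusted p = 8.17e-08), 0.76 ± 0.08 at 16 h (adjusted p = 1.98e-08) and 0.40 ± 0.08 at 24 h (adjusted p = 0.000278). On rebuilt RPKM the 24 h change was 0.18 (adjusted p = 0.133), where all tested genes had a median of -0.15.

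Cfb moved against C3 at first. At 8 h it had 8.83, 7.37, 7.6 and 6.8 RPKM with lactic acid, against 11.8, 11.5, 9.39 and 10.5 RPKM without it, a log2 change of -0.45 ± 0.14 (adjusted p = 0.00572). At 16 h the change was -0.43 ± 0.14 (adjusted p = 0.00948). At 24 h Cfb had 13.3, 14.3, 12.1 and 13.1 RPKM with lactic acid, against 10.8, 10.9, 10.2 and 4.59 RPKM without it. The groups did not overlap at any of these times. The 24 h change was 0.55 ± 0.14 (adjusted p = 0.00169), 0.29 without the low 24 h replicate 4 (adjusted p = 0.00365) and 0.35 on rebuilt RPKM (adjusted p = 0.0554). In a limma fit of the groups compared alone the adjusted p was 0.0783.

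Cfp was lower with lactic acid at 8 h, with 484, 476, 483 and 465 RPKM against 680, 622, 664 and 678 RPKM without it. At 16 h it had 682, 677, 639 and 733 RPKM with lactic acid, against 948, 1020, 989 and 908 RPKM without it. The log2 changes were -0.47 ± 0.08 at 8 h (adjusted p = 5.18e-06) and -0.50 ± 0.08 at 16 h (adjusted p = 3.05e-06), and no libraries overlapped. At 24 h the change was -0.22 ± 0.08 (adjusted p = 0.0215), and its call was lost without 24 h replicate 4 (-0.10), without lactic acid 24 h replicate 2 (-0.19) or without replicate 4 of that group (-0.17).

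The C1q chains were lower with lactic acid at 8 and 16 h. C1qb had 1506, 1397, 1439 and 1337 RPKM with lactic acid at 8 h, against 1954, 1794, 2063 and 2052 RPKM without it, a log2 change of -0.47 ± 0.09 (adjusted p = 4.17e-05). C1qa had 339, 311, 312 and 386 RPKM with lactic acid at 16 h, against 446, 633, 554 and 439 RPKM without it, a log2 change of -0.61 ± 0.11 (adjusted p = 1.44e-05). Neither pair of groups overlapped. At 8 h C1qa changed by -0.38 ± 0.11 and C1qc by -0.23 ± 0.08, and at 16 h C1qb changed by -0.37 ± 0.09 and C1qc by -0.19 ± 0.08. The C1qc call at 16 h (adjusted p = 0.0283) was lost without 16 h replicate 2 (-0.15) or 3 (-0.18) and without lactic acid 16 h replicate 2 (-0.15) or 3 (-0.17). These are short transcripts: with a trend of log2 RPKM on gene length taken out of each library, the 8 h changes became -0.02 for C1qa, -0.12 for C1qb and -0.04 for C1qc, and only that of C1qb kept its call; at 16 h that of C1qc was lost (-0.09, adjusted p = 0.186). At 24 h none of the chains passed the threshold (C1qa -0.11, adjusted p = 0.385; C1qb 0.05, adjusted p = 0.652; C1qc -0.05, adjusted p = 0.618). On rebuilt RPKM all 3 were called lower, C1qb by -0.16, and with the length trend taken out C1qa was (-0.22, adjusted p = 0.0199).

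Of the receptors, C5ar1 had 122, 104, 127 and 110 RPKM with lactic acid at 24 h, against 133, 147, 151 and 137 RPKM without it, and fell by 0.30 on the log2 scale (SE 0.07, adjusted p = 0.00106). At 8 h its 207, 226, 214 and 230 RPKM with lactic acid lay above the 203, 195, 201 and 190 RPKM without it, a log2 difference of 0.15 ± 0.07 that missed the threshold (adjusted p = 0.0639) and passed it on rebuilt RPKM (0.24). C3ar1 rose by 0.16 ± 0.07 at 16 h with overlapping libraries (adjusted p = 0.039), a call lost without 16 h replicate 1 (0.14), 2 (0.13) or 3 (0.16) or lactic acid 16 h replicate 1 (0.12) or 2 (0.16). At 8 h it differed by -0.06 ± 0.07 (adjusted p = 0.413) and at 24 h by 0.08 ± 0.07 (adjusted p = 0.349).

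**Figure D3:**
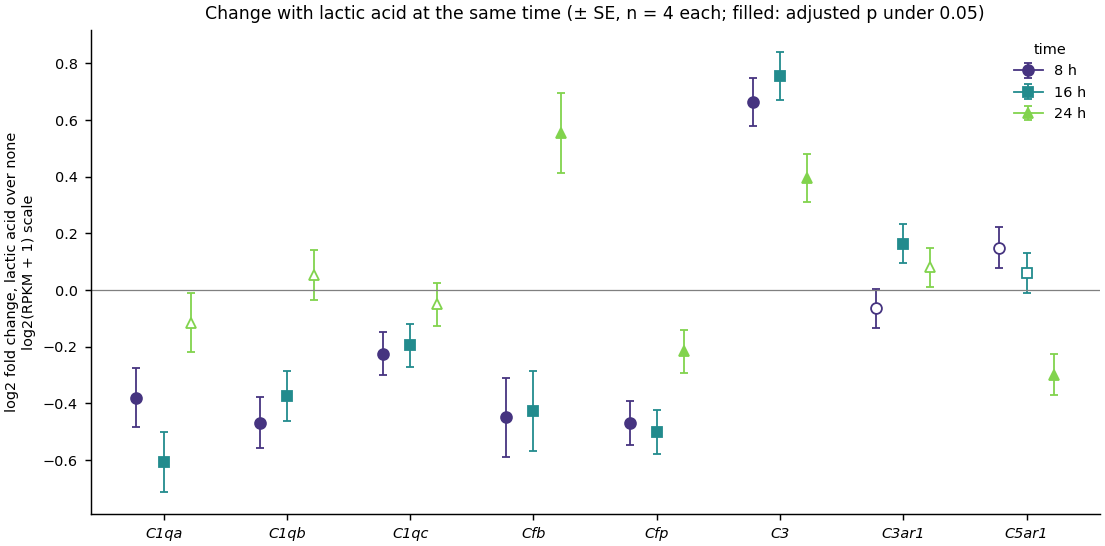
Log2 fold change of libraries with lactic acid over those without it at 8, 16 and 24 h for each gene, on the log2(RPKM + 1) scale with SE, filled where the adjusted p is under 0.05. C3 lies above 0 at all 3 times, Cfp below 0, and Cfb changes sides between 16 and 24 h.

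The difference between the lactic acid changes at 24 and 8 h was tested in the same model, where 62.5% of all tested genes were called (32.7% higher, 29.7% lower) and 5 members were (3 higher, 2 lower). It was 1.00 ± 0.20 for Cfb (adjusted p = 7.74e-05), 0.52 ± 0.13 for C1qb (adjusted p = 0.000766) and -0.45 ± 0.10 for C5ar1 (adjusted p = 0.000359). With the length trend taken out the difference of C1qb was 0.08 (adjusted p = 0.384). The differences of Cfp (0.25, adjusted p = 0.0444; -0.05 on rebuilt RPKM) and C3 (-0.27, adjusted p = 0.0495) were at the threshold. The call of C3 was lost without 8 h replicate 3 (-0.25) or 4 (-0.22), 24 h replicate 1 (-0.22) or 3 (-0.20), lactic acid 8 h replicate 1 (-0.26), 3 (-0.27) or 4 (-0.26), or lactic acid 24 h replicate 1 (-0.23) or 2 (-0.26). That of Cfp was lost without 8 h replicate 1 (0.24), 3 (0.25) or 4 (0.24), 24 h replicate 1 (0.20), 2 (0.23) or 3 (0.21), any replicate of lactic acid at 8 h (0.24 to 0.26), or lactic acid 24 h replicate 1 (0.20) or 3 (0.24). C1qa (0.26), C1qc (0.18) and C3ar1 (0.14) missed the threshold, although C1qa passed it without 24 h replicate 4 (0.33) or lactic acid 24 h replicate 4 (0.34), C1qc without the same libraries (0.25 each) and C3ar1 without lactic acid 24 h replicate 1 (0.22).

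Ordered by mean RPKM over the 8 groups, the C1q chains shared their ends: the lowest group was lactic acid at 16 h for all 3, with 337 RPKM for C1qa, 1178 for C1qb and 381 for C1qc, and the highest was 0 h. For C1qa and C1qb the lowest and the next group (lactic acid at 8 h) did not overlap, while each further neighbour did. C3 ran from 0 h (12.3 RPKM), apart from all others, through 4, 8, 24 and 16 h, whose neighbours overlapped, to lactic acid at 24, 8 and 16 h. Cfb ran from 0 h through 4 h (4.77 RPKM), both apart from the next group, to a run of overlapping neighbours that ended with 16 h (15.2 RPKM). Cfp was lowest with lactic acid at 8 h (477 RPKM) and highest at 24 h (1116 RPKM). C5ar1 was lowest with lactic acid at 24 h (116 RPKM, overlapping 0 h) and highest with lactic acid at 8 h (219 RPKM, apart from 8 h). C3ar1 was lowest with lactic acid at 8 h (176 RPKM) and highest with lactic acid at 24 h (275 RPKM), each overlapping its neighbour.

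Genes with the most similar pattern were ranked by Pearson's r of log2(RPKM + 1) over the 32 libraries among 4622 genes of sufficient level, as a description, since libraries of a group and the library scaling are shared. Trem2 was first for C1qa (r = 0.944) and C1qc (r = 0.938) and the second for C1qb (r = 0.931), after Atxn10 (r = 0.936). Cfp ran with Aif1 (r = 0.987) and Lst1 (r = 0.98), C3 with Plod3 (r = 0.967), Hif1a (r = 0.965) and Lcn2 (r = 0.965), and Cfb with Ms4a6d (r = 0.982) and H2-T24 (r = 0.977). The receptors had looser partners, Fbxo18 (r = 0.9) for C3ar1 and Cirh1a (r = 0.914) for C5ar1. Within the set, C3 and Cfb had r = 0.915 and C1qa and C1qb had r = 0.904.

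The histone marks were read from the authors' peak lists of 16139 H3K18la peaks in M1 and 21885 in M0, and 42237 H3K18ac peaks in M1 and 41493 in M0. A peak was taken as near a gene if at least 1 base lay within the gene or 5 kb of it, for the 9614 tested genes with a RefSeq locus. Fold enrichment is the peak caller's, over its own background, and it describes a peak within its list. All 8 members had a nearby H3K18la peak in M1 (84.0% of genes did) and 6 in M0 (96.0%). For H3K18ac all 8 had such a peak in M1 (96.2% of genes) and in M0 (97.2%). With 1 library per mark and state there is no test of any of these differences, and the spike-in counts differed: 148.3 mouse reads per spike-in read for H3K18la in M1 and 70.2 in M0, and 652.8 for H3K18ac in M1 and 696.9 in M0.

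C3 and Cfb were the 2 members with a nearby H3K18la peak in M1 and none in M0, a pattern of 0.957% of genes; none had one in M0 alone, as 12.9% of genes did. For H3K18ac no member had a nearby peak in M1 alone (0.843% of genes) or in M0 alone (1.88%). The C3 peak, chr17:57227478-57228136, was 659 bases wide with a fold of 5.1 and ended at the start of the gene, so that it covered the 50 transcribed bases of the promoter printed above and none of the 250 before them. The Cfb peak, chr17:34861023-34863228, was 2206 bases wide with a fold of 3.8 and crossed the higher-coordinate end of Cfb. The lower-coordinate end of the neighbouring gene C2 lies 87 bases beyond, so the peak also overlaps C2 and cannot be given to Cfb alone. Whether C2 is transcribed from that end was not read. The -log10 q of the peak was 4.3, and Cfb had no H3K18la peak in M1 once a -log10 q of at least 5 was asked for. Within 20 kb both genes had an H3K18la peak in M0 as well, which leaves no member with this pattern. Acetylation was wider there in M1: at the C3 start a peak of 6921 bases with a fold of 5.0 in M1, against 4579 bases with a fold of 3.0 in M0, and near Cfb 6547 bases in M1, against 501 bases in M0. Over the window of each gene, 5 members had more bases under H3K18ac in M1 than in M0 (59.1% of genes did). C5ar1 and Cfp had fewer (38.7% of genes), and C1qc was covered alike. Among the 5, C1qa had 9200 bases in M1 and 9183 in M0, and C1qa and C1qb lay under the same M1 peak.

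The other members carried H3K18la in both states. In the C1q cluster a single M0 domain, chr4:136883456-136899319, of 15864 bases with a fold of 14.8, spanned C1qa, C1qc and the higher-coordinate part of C1qb, and was one of the widest of its list. In M1 the same stretch held 2 peaks of 10979 bases (fold 12.5) and 3893 bases (fold 6.0). H3K18ac covered the whole cluster in M1 with a peak of 21147 bases (fold 9.1), whereas in M0 a peak of 16830 bases (fold 8.6) began inside C1qb and a separate one of 1096 bases (fold 3.1) lay at its other end. C3ar1 had the strongest H3K18la peak of the set, with a fold of 20.4 in M1 and 22.2 in M0, over 5615 and 5551 bases. C5ar1 had 4 H3K18la peaks in M1, the highest with a fold of 6.8, against 2 in M0, the highest with a fold of 11.3 over 9039 bases. The M1 peaks covered 200 of the 300 bases of its promoter and the M0 peak all 300. Cfp had a peak of 2632 bases with a fold of 5.7 in M1, against 3434 bases with a fold of 12.0 in M0, and both covered its whole promoter. C1qa, C1qc, C5ar1 and Cfp had fewer bases under H3K18la in M1 than in M0, as did 72.1% of genes, and C1qb, C3, C3ar1 and Cfb had more, as did 24.8%; the median fold of all H3K18la peaks was 4.16 in M1 and 5.41 in M0.

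**Figure D4:**
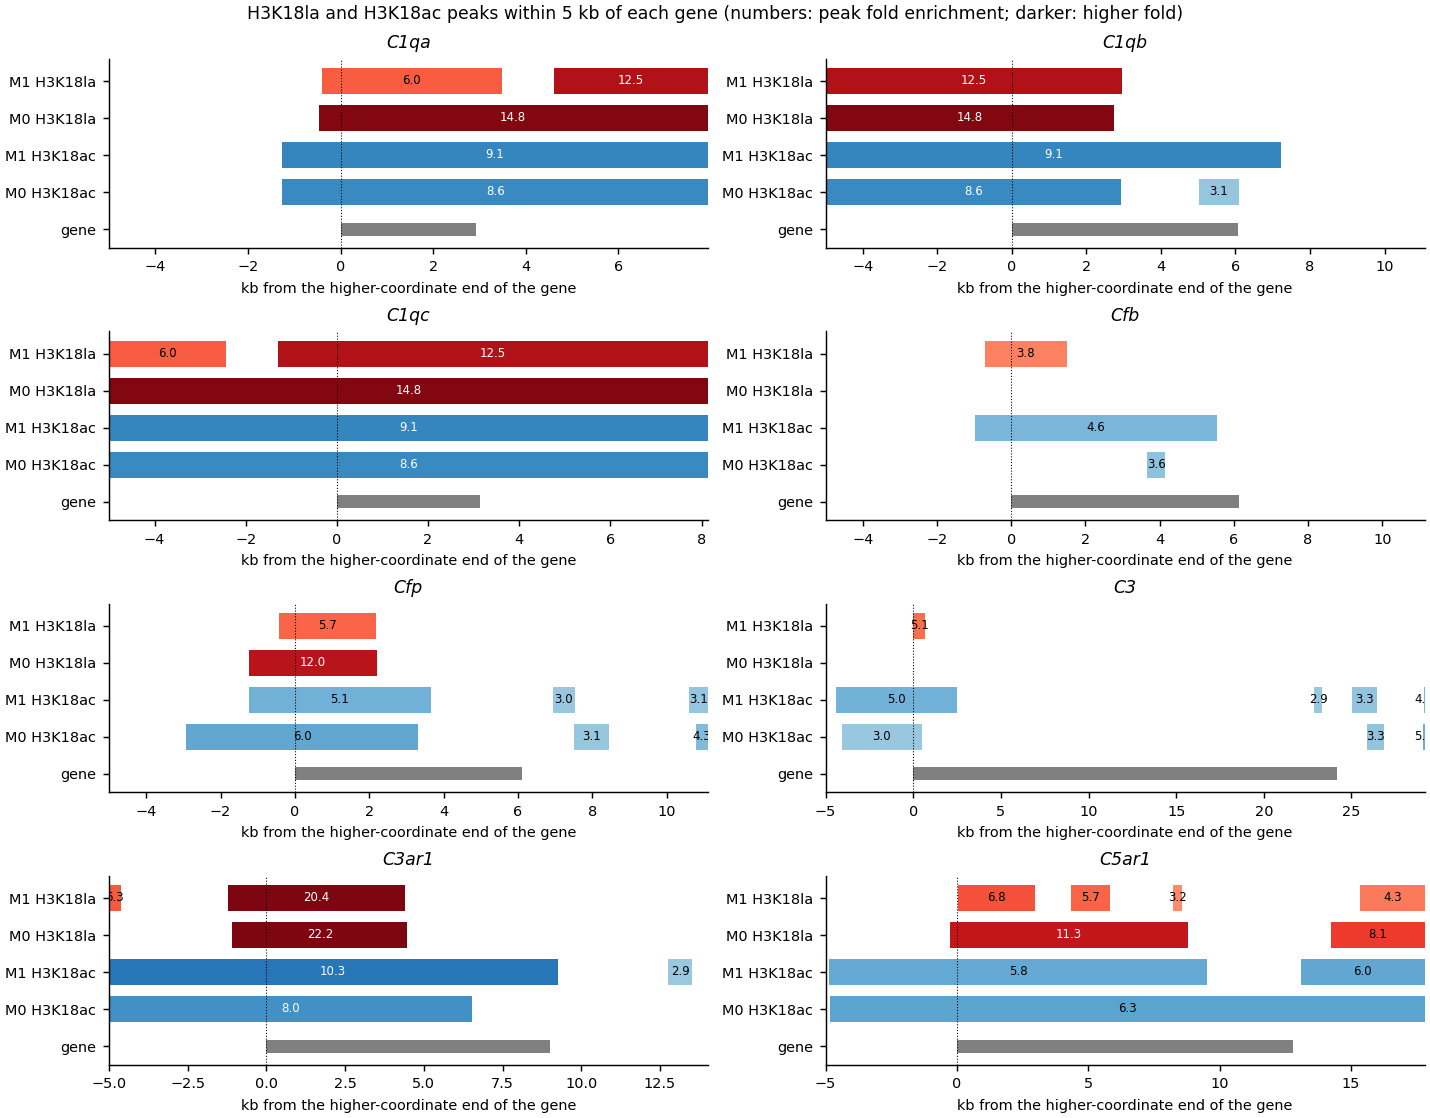
H3K18la (red) and H3K18ac (blue) peaks in M1 and M0 within 5 kb of each gene, against distance in kb from its higher-coordinate end. That end is the promoter's gene start for C1qb, C3, C3ar1 and Cfp, while the start used for C1qc and C5ar1 lies inside the gene. Numbers are fold enrichment and bars are cut at the window edges. C3 and Cfb have a red bar in M1 and none in M0, and the C1q chains share the same domains.

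The rest of the complement system was taken from a list of 46 other genes, of which 16 were listed and 14 tested. Against 0 h 5 rose and 9 fell at 4 h, 4 rose and 7 fell at 8 h, 6 rose and 6 fell at 16 h, and 6 rose and 6 fell at 24 h. Of all tested genes 42.5% rose and 42.7% fell at 4 h, and 40.7% rose and 42.1% fell at 8 h. At 16 h 39.9% rose and 36.9% fell, and at 24 h 39.9% rose and 37.3% fell. On rebuilt RPKM 4 rose and 9 fell at 4 h, 3 and 10 at 8 h, 4 and 8 at 16 h, and 4 and 9 at 24 h. The rebuilt scale called 2335 of the 9942 tested genes higher and 6337 lower at 4 h, and 2200 and 6365 at 8 h. At 16 h it called 2085 higher and 6046 lower, and at 24 h 1686 and 6588. Of the classical and lectin pathway 3 of 15 genes were tested. C1ra, a protease of the C1 complex, averaged 3.43 ± 0.177 RPKM at 24 h and 1.38 ± 0.123 RPKM at 0 h (SD, n = 4 each) and rose by 0.90. The lectin Fcna averaged 9.05 ± 1.26 RPKM at 24 h and 18 ± 2.22 RPKM at 0 h and had a log2 change of -0.92. Of the terminal pathway 1 of 7 genes was tested, C8g, at no more than 1.2 RPKM in any library. Cfd, the protease that activates factor B, was the sole gene of its list and is not among the listed genes.

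Of the regulators 2 of 13 genes were tested. Cr1l, a membrane inhibitor, averaged 11.6 ± 0.609 RPKM at 4 h and 6.25 ± 0.201 RPKM at 0 h (SD, n = 4 each); it rose by 0.80 at 4 h and by 0.19 at 24 h, with the 24 h change at -0.24 on rebuilt RPKM. Cd59a, which blocks the lytic complex, was lower at 4 h (-0.37) and higher at 24 h (0.36, but -0.05 on rebuilt RPKM). With lactic acid Cr1l was lower at 8 h (-0.50) and 16 h (-0.56), as was Cd59a (-0.32 and -0.29).

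Of 8 tested receptors 3 rose and 5 fell at 4 h (85.3% of all tested genes were called), and 3 rose and 4 fell at 24 h (77.2%). C5ar2, the second receptor for C5a, averaged 0.265 ± 0.06 RPKM at 4 h and 2.39 ± 0.194 RPKM at 0 h (SD, n = 4 each), a log2 change of -1.42. It exceeded a mean of 1 RPKM at 0 h alone and passed the minimum through that group, so a fall was to be found. Itgam and Itgb2, which together form complement receptor 3, were lower at 4 h (-0.51 and -0.43) and higher at 24 h (1.30 and 0.81). Calr, a chaperone that also acts as a C1q receptor, rose by 1.84 at 16 h. Lrp1, a scavenger receptor that partners with Calr, was higher with lactic acid at 8 h, with 43.5 ± 3.84 RPKM against 19.6 ± 3.81 RPKM without it, and rose by 1.13. With lactic acid 4 of the 14 genes rose and 4 fell at 8 h (32.1% and 36.0% of all tested genes did). At 16 h 2 rose and 4 fell (30.2% and 31.0%), and at 24 h 1 rose and 3 fell (25.5% and 21.7%). On rebuilt RPKM 0 rose and 7 fell at 24 h, where 1035 of the 9942 tested genes rose and 4617 fell.

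**Figure D5:**
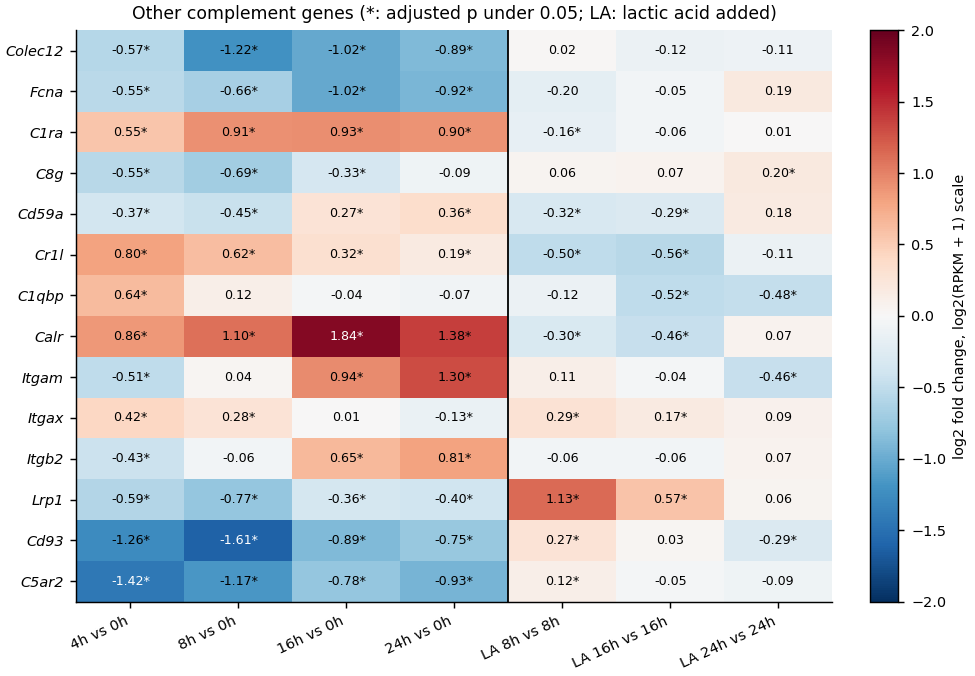
Log2 fold change of the 14 other tested complement genes (rows) on the log2(RPKM + 1) scale in 7 comparisons (columns, LA for lactic acid), with an asterisk where the adjusted p is under 0.05. Cd93 and C5ar2 are below 0 at every time against 0 h, and Calr and C1ra are above 0.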

How the data were processed

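Groups and replicate numbers come from the labels. The authors deposited RPKM with, for every gene, their log2 fold changes against 0 h, a p-value and an FDR. The submitters' processing notes name featureCounts 1.5.0-p1, HISAT2 2.1.0 and edgeR. Each deposited peak list holds a score, a fold enrichment and -log10 p and q; the same notes name SAMtools 0.1.19, MACS2 2.2.1 and Bowtie2 2.2.6 with the builds mm10 and GRCm38, while the threshold and control are not given in the sources used here. The authors' spike-in table gives read counts.

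The 8 complement genes and the other lists were chosen with earlier results of these data known. The 8 are described in each comparison, other complement genes come from a list, and similar genes are the 3 with the highest Pearson's r. Alternatives were the library scaling, pseudocount, filter, samples fitted, length trend, replicate block, count tests, single libraries left out, and peak window, overlap and threshold. limma 3.58.1 (R 4.3.3) was fitted to log2(RPKM + 1) of all 32 libraries with 1 mean per group and no covariate, and p-values were adjusted by the Benjamini-Hochberg method. Whole reads behind the RPKM were recovered: 100.0% of values came out whole (tolerance 0.05), where 10.0% would by chance. They fed edgeR 4.0.16 and DESeq2 1.42.0 as alternatives. The fit was tested on simulated data with known changes. No 2 libraries of a group agreed within sampling noise (lowest chi-square per degree of freedom 6.9 over 48 pairs). On the second principal component 24 h replicate 4 (17.9, other replicates 8.7 to 11.6) and lactic acid 24 h replicate 1 (28.6, others 22.6 to 25.2) stood apart. Some items are not reported here.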

Additional observations from a re-analysis of the deposited data

Results flagged for a closer look

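Among 64 groups of 4 libraries 6 held a library far from the other 3, where chance gives about 1 in 20 groups. Replicate 4 at 24 h was the lowest for Cfb, with 4.594 RPKM and the other 3 at 10.16 to 10.86, and the highest for Cfp, with 1403 RPKM and the others at 993.9 to 1050. C3ar1 had 235.2 RPKM in replicate 1 of lactic acid at 24 h, with the others at 283.9 to 293.3. At 4 h C1qb had 1978 RPKM in replicate 1 (others 2165 to 2180) and C1qc had 597.0 RPKM in replicate 2 (others 604.5 to 606.1). Cfp had 513.5 RPKM in 0 h replicate 4 (others 535.0 to 538.8).

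The lactic acid change differed between 24 and 8 h for 5 genes. By limma with Benjamini-Hochberg adjustment the log2 differences were 1.004 for Cfb, 0.5218 for C1qb, 0.2524 for Cfp, -0.2676 for C3 and -0.4478 for C5ar1. With the length trend removed the difference of C1qb was 0.08 (adjusted p = 0.384).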

How the results depend on the processing

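Against 0 h every alternative left C3 and Cfb higher and kept the calls of C1qc. The rise of Cfb was to be found, as Cfb passed the minimum through its stimulated libraries alone. Rebuilding RPKM on the reads in listed genes made the largest difference: all 8 members were called at 4 h, and the share of higher among all called genes dropped to 26.9% (4 h), 25.7% (8 h), 25.6% (16 h) and 20.4% (24 h), against 49.9%, 49.2%, 51.9% and 51.6% as deposited; it was 33.1% against 50.9% from 16 to 24 h, 18.3% against 54.0% for lactic acid at 24 h and 26.0% against 52.4% for its difference from 8 h. The sign turned for C3ar1 (-0.20 at 4 h, -0.0915 at 16 h, -0.0159 at 24 h), C5ar1 (-0.47 at 4 h, -0.21 at 24 h), Cfp (-0.51 at 4 h, -0.17 at 8 h, and -0.0486 for the lactic acid change at 24 h minus 8 h) and C1qb (-0.16 for lactic acid at 24 h). With a length trend removed that Cfp difference was -0.0132, and 3 members were called for it. A fit of only the groups compared called 4 members from 16 to 24 h, 2 for lactic acid at 24 h and 3 for its 24 h minus 8 h difference. It also ended the calls of C3 from 8 to 16 h (adjusted p = 0.0696), C3ar1 with lactic acid at 16 h (0.0668) and Cfp with lactic acid at 24 h (0.288). Over all genes it called 1320 higher and 1365 lower from 16 to 24 h (2398 and 2316 in the fit of all groups) and 1256 and 1001 for lactic acid at 24 h (2532 and 2153). At 4 h against 0 h it called 4421 higher and 4402 lower, where the fit of all groups called 4228 and 4248. The cause was not tested. Leaving out 1 library at a time moved the number of members called between 3 and 7 for that difference, between 5 and 7 from 16 to 24 h and for lactic acid at 16 h, and between 3 and 4 for lactic acid at 24 h. Without 24 h replicate 4 and lactic acid 24 h replicate 1, a choice made after seeing the data, 4 members were called for lactic acid at 24 h and 6 for the difference. Replicate numbers shared by groups did not pair the libraries (correlations of deviations -0.643 to 0.511). With a replicate block C3ar1 lost its call from 16 to 24 h (0.17, adjusted p = 0.0501, limma) and Cfp in the difference (0.25, adjusted p = 0.0556), and no other call of a member changed. Pseudocounts of 0.1 and 0.5 changed no call of a member. The counts of members with a nearby peak in 1 list moved by less than 1.5 times when the window, the -log10 q or the overlap changed. The 2 members with an H3K18la peak in M1 and none in M0 became 1 (C3) with a -log10 q of at least 5, and 0 within 20 kb. With the gene start alone C3 kept this pattern, but C1qa and Cfb have no promoter entry and could not be counted. For H3K18ac the count became 1 (Cfb) at a -log10 q of at least 5, from 0. The Cfb values at 0 h rest on 2 to 9 reads.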
